A study of Rattus norvegicus with 44 samples.

Results

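The genes described here are 8 members of the MHC class I antigen processing pathway: B2m, Tap1, Tap2, Tapbp, Psmb8, Psmb9, Psmb10 and Nlrc5. They were chosen by symbol, and all 8 have a row among the 20003 rows of the CA1 table and the 20050 rows of the DG table. The data are polyA RNA-seq libraries from hippocampal areas CA1 and dentate gyrus (DG) of 22 male rats, with both regions taken from 1 hippocampus of each animal, giving 44 libraries. Young LPS rats (n = 8, aged 5 to 7 months) received lipopolysaccharide, a bacterial endotoxin, at 1 mg/kg into the peritoneum once a week for 7 weeks. Aged vehicle rats (n = 6, aged 14 to 16 months) and young vehicle rats (n = 8, aged 5 to 7 months) received saline on the same schedule, and brains of all 3 groups were taken 48 hours after the last injection. The study set young LPS against young vehicle for the treatment, aged against young vehicle for age, and young LPS against aged vehicle to compare peripheral inflammation with ageing. The stimulus was peripheral, no aged rat received LPS, and the strain is not given in the sources used here.

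MHC class I molecules display short peptides from inside the cell to CD8 T cells. The proteasome cuts the proteins, and interferon can replace its catalytic subunits Psmb6, Psmb5 and Psmb7 with Psmb9, Psmb8 and Psmb10, which together make the immunoproteasome. Tap1 and Tap2 form the transporter that carries peptides into the endoplasmic reticulum, Tapbp (tapasin) holds the empty class I molecule beside that transporter, and B2m (beta-2-microglobulin) is the light chain of the finished complex. Nlrc5 is the transactivator that drives this group of genes. In brain, microglia and endothelium express class I, and work in mice has shown class I proteins in hippocampal neurons as well; in mice, B2m in blood has also been described as a factor that increases with age.

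The proximal promoters of these genes are known for interferon response elements, so the upstream sequence is shown for the 1 gene that passed the test in a comparison (B2m), the gene with the smallest p after LPS in CA1 (Tapbp), and the neighbours Tap1 and Psmb9. Each line gives the 250 bases upstream of the RefSeq start in assembly GRCr8, on the gene's own strand from 5′ to 3′. This is the reference sequence, not that of these animals, and the deposited counts used build rn6. Capitals mark matches to an ISRE core (GAAA, any 2 bases, then GAAA, or on the other strand TTTC, any 2 bases, then TTTC) or a Y box (CCAAT or its complement ATTGG). B2m lies at chr3:129549080-129549329 on the plus strand, Tapbp at chr20:4967878-4968127 on the minus strand, Tap1 at chr20:4668544-4668793 on the minus strand, and Psmb9 at chr20:4668750-4668999 on the plus strand.
B2m: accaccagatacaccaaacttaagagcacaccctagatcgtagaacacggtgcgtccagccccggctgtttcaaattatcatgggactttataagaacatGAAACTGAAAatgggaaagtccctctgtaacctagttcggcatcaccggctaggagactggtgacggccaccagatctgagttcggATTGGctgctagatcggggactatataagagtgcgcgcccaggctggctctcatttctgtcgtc
Tapbp: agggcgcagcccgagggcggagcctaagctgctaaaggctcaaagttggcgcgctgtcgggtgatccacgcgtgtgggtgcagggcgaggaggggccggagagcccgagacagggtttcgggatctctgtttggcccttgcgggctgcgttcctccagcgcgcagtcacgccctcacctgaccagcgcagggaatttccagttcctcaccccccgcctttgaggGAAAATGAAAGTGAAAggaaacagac
Tap1: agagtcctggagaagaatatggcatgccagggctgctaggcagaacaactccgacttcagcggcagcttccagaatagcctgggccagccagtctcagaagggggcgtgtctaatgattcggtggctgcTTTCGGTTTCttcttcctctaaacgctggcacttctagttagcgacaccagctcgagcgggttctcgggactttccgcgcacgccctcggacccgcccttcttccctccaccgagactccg
Psmb9: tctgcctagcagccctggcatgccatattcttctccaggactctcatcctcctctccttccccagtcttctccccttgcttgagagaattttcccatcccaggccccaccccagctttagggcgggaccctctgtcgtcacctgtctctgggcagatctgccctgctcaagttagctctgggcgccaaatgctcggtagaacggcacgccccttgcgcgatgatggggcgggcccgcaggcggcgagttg
An ISRE core was found on either strand in 5 of the 7 members with an entry (B2m, Tap1, Tap2, Tapbp and Psmb10), while 3.41% of 33469 rat promoters of this length hold one. Tapbp and Psmb10 hold 2 each, and those of Tapbp overlap, so that they read as 1 run of capitals. The GAS motif, written TTCNNNGAA on both strands, was found in 1 of 7 (Psmb8) and in 7.67% of all promoters. The Y box was found in 2 of 7 (B2m and Psmb8) and in 34.0% of all promoters. Tap1 and Psmb9 start 457 bases apart and are read in opposite directions, and their windows share 44 bases. The ISRE core of Tap1, at -121 to -112 from its start, lies between the starts of both genes. It falls outside the 250-base window of Psmb9, so the absence of a match for Psmb9 holds for that window only. Tap1, Tap2, Tapbp, Psmb8 and Psmb9 lie on chromosome 20, B2m on chromosome 3, and Psmb10 and Nlrc5 on chromosome 19. Nlrc5 is named only, with no promoter.

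Libraries held 12130182 to 23519791 reads over the listed genes. Values are the deposited normalized counts, called normalized reads below, in which 1 read is worth 0.659 to 1.46 depending on the library. The CA1 and DG tables were normalized separately, so levels are compared within a region. Area markers matched the label in every CA1 library, where the mean log2 level of pyramidal over granule markers was 1.60 to 4.77. In DG the same difference was -3.78 to 0.24, and the summed pyramidal markers exceeded the summed granule markers in 9 of 22 libraries, 3 of 8 from young LPS rats, 4 of 6 from aged rats and 2 of 8 from young vehicle rats. The median level of the pyramidal markers in DG, relative to the region mean on the log2 scale, was 0.34 in young LPS rats, 1.02 in aged rats and -0.39 in young vehicle rats. The ranges of the groups overlapped, and the part of these markers in the DG values was not tested. Vehicle rats 2526 and 2572 and aged rat 2532 stood apart by markers of meninges, choroid plexus, perivascular macrophages or blood in one or both regions, and values without them are given beside several of the genes described. That set holds no LPS rat, and other rats had high markers too. In CA1, young LPS rat 2404 had blood markers at 1.85 and choroid plexus markers at 1.10 above the region mean (log2). Vehicle rat 2523 had blood at 1.61, and aged rat 2420 had choroid plexus at 1.40. In DG, 2 of 7 meningeal and 2 of 6 choroid plexus markers had a row. In bulk tissue, fewer cells of a type and less RNA per cell cannot be told apart.

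**Figure D1:**
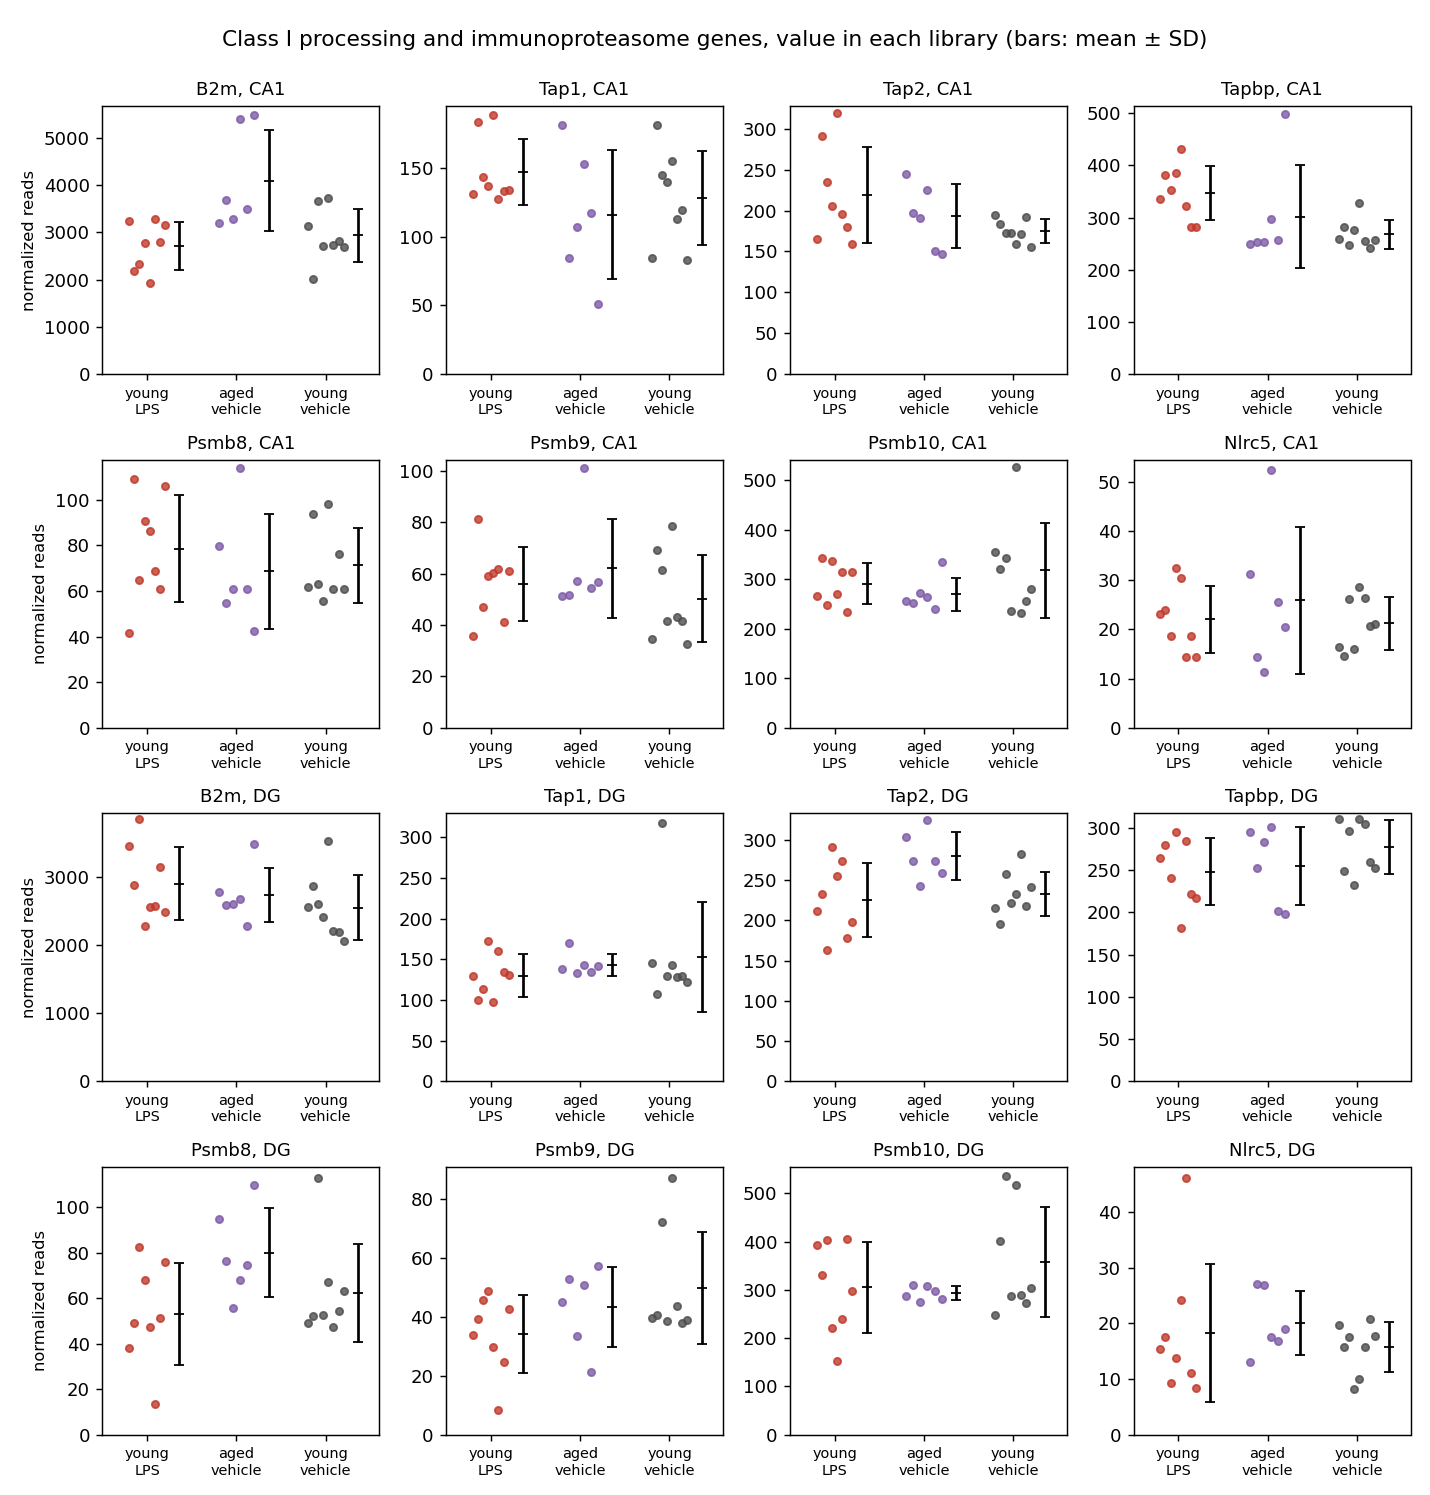
Normalized reads (linear axis from 0) of each of the 8 genes in each library, in CA1 (upper 2 rows) and DG (lower 2 rows). Each point is 1 rat and bars are mean ± SD of 8 young LPS, 6 aged vehicle and 8 young vehicle rats. In CA1, B2m lay between 1919 and 3273 in young LPS rats and between 3206 and 5491 in aged rats, and in every panel the groups overlapped.

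After repeated LPS, none of the 8 genes passed the test in CA1. The test was limma on log2(value + 1) with the 3 groups in 1 fit and p-values adjusted over the 14915 genes tested, with a threshold of 0.05, and it called 0% of all genes. Adjusted p-values are from limma unless another test is named. At an unadjusted p below 0.05 it held 1 of the 8, against 6.87% of all genes, and edgeR (0% of all genes called) and DESeq2 (0.00670%) on reads recovered from the values also called 0 of the 8. Differences were above 0 for 6 of 8 genes, against 52.2% of all genes, and their median was 0.14 on the log2 scale, beside 0.012 over all genes. No member had young LPS and young vehicle libraries without overlap in CA1, and 0.0134% of all genes did.

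Tapbp had the smallest p of the 8 in that comparison. Its values in CA1 ran from 282 over a median of 344 to 432 normalized reads in young LPS rats, and from 241 over 258 to 328 in young vehicle rats. All 8 LPS libraries lay above the vehicle median and 5 lay above the highest vehicle library, so the groups overlapped for the other 3 LPS libraries. The log2 change was 0.36 (SE 0.13, 95% interval 0.094 to 0.63), with adjusted p = 0.654. The change stayed between 0.31 and 0.40 when any 1 library was left out.

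Tap2, one of the transporter subunits, had 159, 200 and 319 normalized reads as lowest, median and highest in CA1 of young LPS rats, and 156, 173 and 195 in young vehicle rats. The vehicle libraries were close together, and 5 of 8 LPS libraries lay above all of them. The estimate on the log2 scale was 0.28 (SE 0.14, adjusted p = 0.654). Tap1 had 127, 136 and 188 in young LPS rats and 82.9, 130 and 181 in young vehicle rats, with a log2 difference of 0.24 (SE 0.21, adjusted p = 0.692). For Tap1 2 LPS libraries, from rats 2404 and 2543, lay above every vehicle library, and the others were within the vehicle range.

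Intervals included 0 for Tap1 (-0.19 to 0.66), for Tap2 (-0.011 to 0.57) and for the other 5 genes after LPS in CA1. B2m was 2708 ± 514 normalized reads in young LPS rats and 2938 ± 563 in young vehicle rats (SD, n = 8 each), a log2 difference of -0.12 (95% interval -0.42 to 0.18). Psmb8, which cuts after hydrophobic residues, was 78.5 ± 23.5 in young LPS rats and 71.3 ± 16.4 in young vehicle rats. Psmb9, which takes the place of the caspase-like subunit, was 55.9 ± 14.3 in young LPS rats and 50.3 ± 17.1 in young vehicle rats. For these genes the spread within groups was wider than the difference between means. Psmb10 was 291 ± 41.8 in young LPS rats and 318 ± 96.2 in young vehicle rats, and the low-count Nlrc5, with 15 to 34 reads per LPS library, had 14.3, 20.9 and 32.4 as lowest, median and highest in young LPS rats and 14.6, 20.9 and 28.5 in young vehicle rats.

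In DG, LPS rats again gave no call among the 8 genes, where limma called 0.0134% of 14904 genes. Both edgeR (0.0134%) and DESeq2 (0.0201%) called 0 of the 8. At an unadjusted p below 0.05 limma held 1 of the 8, against 7.53% of all genes, and groups without overlap were found for 0 of the 8 and 0.0403% of all genes. Here 2 of 8 differences were above 0, against 48.8% of all genes, and the median was -0.17, beside -0.0041 over all genes. The gene with the small p was Psmb9, which had 8.50, 36.6 and 48.7 normalized reads as lowest, median and highest in young LPS rats, and 37.9, 39.9 and 86.9 in young vehicle rats. The lowest LPS value came from rat 2547, with 7 reads, and the high vehicle values came from rats 2572 and 2526. On the log2 scale it differed by -0.60 (SE 0.29, adjusted p = 0.663). Without rat 2547 it was -0.35, and without rats 2526, 2572 and 2532 it was -0.35 as well.

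Rat 2547 was also the lowest LPS rat for Psmb8 in DG. Psmb8 had 13.4, 50.3 and 82.4 normalized reads as lowest, median and highest in young LPS rats, and 47.5, 53.6 and 113 in young vehicle rats, a log2 difference of -0.32 (SE 0.26, adjusted p = 0.817). Without rat 2547 it was -0.073, without rat 2526 it was -0.20, and without rats 2526, 2572 and 2532 it was -0.15. In the same DG library Nlrc5 was the highest of its group at 46.1, while Psmb8 and Psmb9 were the lowest. That library's microglial marker level was -0.05 relative to the region mean on the log2 scale, its perivascular macrophage level was -0.69, and its summed T and NK cell markers were 3.64 normalized reads. Of these 10 T and NK cell markers 1 passed the filter in DG, so the sum is near the floor. The lowest sums were 3.32 in young vehicle rats and 10.1 in aged rats. The part of these markers in the low values was not tested.

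The vehicle rat 2526 stood at the other end in DG. It had 318 normalized reads of Tap1, and the other groups' highest values were 172 in young LPS rats and 170 in aged vehicle rats. Psmb8 at 113, Psmb10 at 536 and the mean log2 level of the 8 genes at 0.52 were the highest of the vehicle group as well. Markers of blood were 2.15, of perivascular macrophages 1.44 and of microglia 0.27 above the region mean in that library on the log2 scale, and their part in these values was not tested. Without rats 2526, 2572 and 2532 the Tap1 change after LPS in DG was 0.012, against -0.18 (SE 0.17) with them.

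Of the remaining genes in DG, B2m was 2903 ± 540 normalized reads in young LPS rats and 2551 ± 476 in young vehicle rats (SD, n = 8 each), a log2 difference of 0.19 (95% interval -0.045 to 0.42). For B2m, 7 of the 8 LPS libraries lay above the vehicle median. Tapbp was 248 ± 39.5 in young LPS rats and 277 ± 32.1 in young vehicle rats, and 3 LPS libraries lay below every vehicle library. Psmb10 differed by -0.24 (SE 0.18), Tap2 by -0.066 (SE 0.11) and Nlrc5 by 0.06 (SE 0.31) on the log2 scale, with intervals that include 0. The Psmb10 value was -0.03 without rats 2526, 2572 and 2532, and -0.10 without rat 2543.

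The difference between the regions was tested within rats, as the log2 level in CA1 minus that in DG of the same animal, in 14637 genes. No gene passed in the LPS comparison (0% called by limma), and 3 of the 8 had an unadjusted p below 0.05, against 13.4% of all genes. For Tapbp the LPS change was 0.52 higher in CA1 than in DG (SE 0.19, adjusted p = 0.338). For Psmb9 it was 0.78 higher in CA1 (SE 0.32, adjusted p = 0.346), and 0.50 higher without rat 2547. For Tap2 it was 0.35 higher (SE 0.17, adjusted p = 0.370). These genes therefore had opposite signs of change in the regions without a difference that passed the test.

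**Figure D2:**
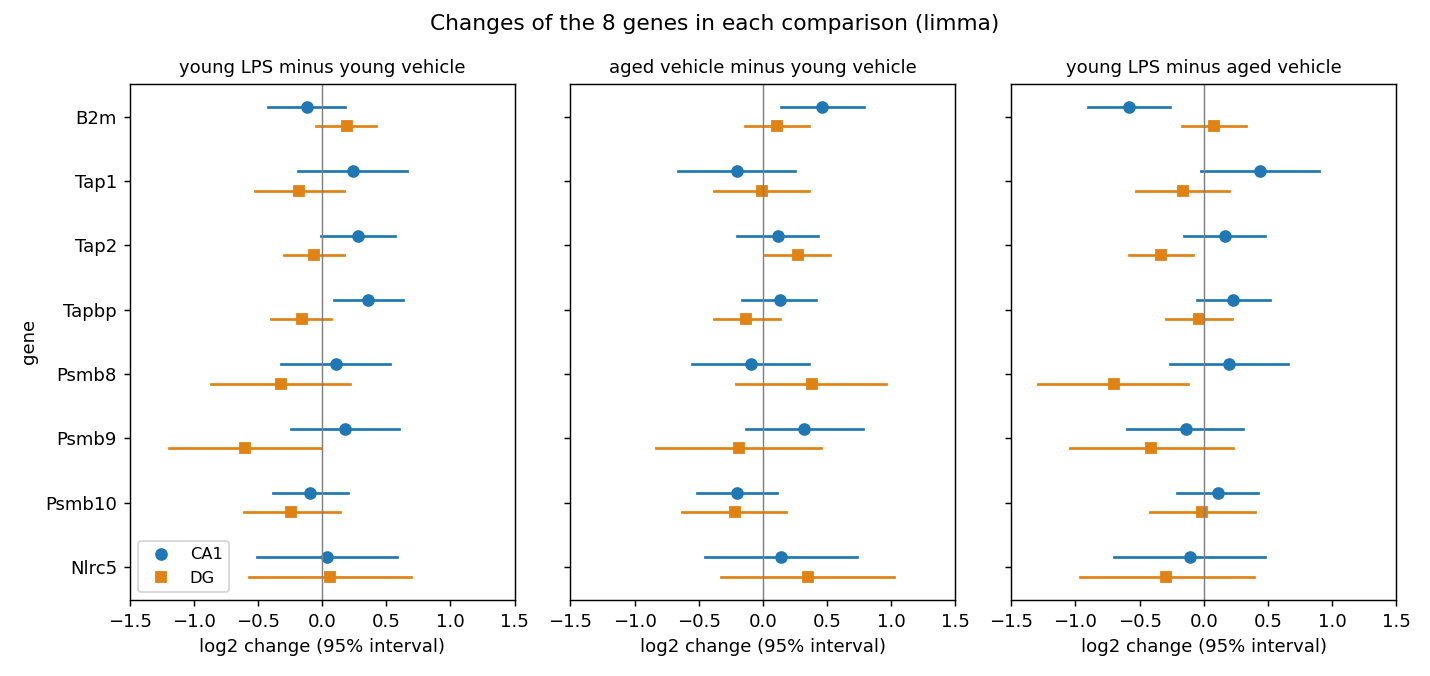
Log2 change of each gene with its 95% interval (limma) for LPS (against young vehicle), age (against young vehicle) and LPS against aged rats, in CA1 (circles) and DG (squares). B2m in CA1 stood at -0.58 in young LPS minus aged vehicle, the single value past the threshold, and most other intervals crossed 0.

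Age was compared between aged and young vehicle rats. Animal numbers start with 24, 25 or 27, and these number series are unevenly spread over the groups. Most aged rats are in series 24 and none in 27, while most young vehicle rats are in 25 or 27. Age and series therefore cannot be fully told apart, and what a series stands for is not given. In CA1 none of the 8 genes passed, where limma called 0.0134% of 14915 genes, and edgeR (0.0134%) and DESeq2 (0.0469%) also called 0 of the 8. At an unadjusted p below 0.05 limma held 1 of the 8, against 12.6% of all genes, and groups without overlap were found for 0 of the 8 and 0.235% of all genes. That gene was B2m, the class I light chain. It had 3206, 3587 and 5491 normalized reads as lowest, median and highest in aged rats, and 2012, 2777 and 3725 in young vehicle rats. All 6 aged libraries lay above the young median, and rats 2532 and 2420 lay above every young library. The log2 change was 0.46 (SE 0.16, 95% interval 0.14 to 0.79, adjusted p = 0.393). Without those 2 rats, an alternative chosen after seeing the data, it was 0.24.

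With age in CA1, differences were above 0 for 5 of 8 genes, against 50.4% of all genes, with a median of 0.12, beside 0.0027 over all genes. Psmb9 had 51.3, 55.7 and 101 normalized reads as lowest, median and highest in aged rats, and 32.7, 42.4 and 78.5 in young vehicle rats. All 6 aged libraries were above the young median, and 5 of them were close together, while rat 2420 stood alone at 101. The change amounted on the log2 scale to 0.32 (SE 0.22, adjusted p = 0.463), to 0.17 without rat 2420, and to 0.51 without rats 2526, 2572 and 2532. Tap1 was 116 ± 46.8 in aged rats (n = 6) and 128 ± 34.2 in young vehicle rats (n = 8), and its lowest aged value, 51.0 with 35 reads, came from rat 2532. For Tap1, Tap2, Tapbp, Psmb8, Psmb10 and Nlrc5 the age differences in CA1 were -0.20 to 0.14 on the log2 scale, with adjusted p of 0.501 to 0.840. The Tap1 difference of -0.20 was 0.0087 without rat 2532.

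In DG the age comparison also gave 0 of 8 by limma, which called 0.0134% of 14904 genes, by edgeR (0.0134%) and by DESeq2 (0.0268%). At an unadjusted p below 0.05 limma held 1 of the 8, against 2.99% of all genes. Groups without overlap were found for 0 of the 8 and 0.0738% of all genes, and differences above 0 for 4 of 8 and 51.8%. Tap2 had 243, 274 and 325 normalized reads as lowest, median and highest in aged rats, and 195, 226 and 282 in young vehicle rats. Every aged library lay above the young median and 2 lay above every young library. The estimate on the log2 scale was 0.27 (SE 0.12, adjusted p = 1.000). Psmb8 had 55.9, 75.6 and 110 in aged rats, and 47.5, 53.6 and 113 in young vehicle rats. Again all 6 aged libraries lay above the young median, and the highest young library, from rat 2526, lay above all of them. The estimate on the log2 scale was 0.38 (SE 0.29, adjusted p = 1.000). Among the other 6 genes the age differences in DG were -0.22 (Psmb10) to 0.35 (Nlrc5), each with adjusted p = 1.000. The Psmb10 difference was -0.0066 without rats 2526, 2572 and 2532. In DG the median level of the CA1 pyramidal markers was higher in aged than in young vehicle rats, at the values given above. For the difference of the age change between regions limma called 0% of 14637 genes and 0 of the 8 had an unadjusted p below 0.05, against 5.52% of all genes.

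Young LPS and aged rats were then compared with each other, using the same libraries as above, so these values are not independent of the previous ones. In CA1 limma called 1 of the 8 genes, B2m, and 8.73% of 14915 genes, of which the lower ones were 5.24%. At an unadjusted p below 0.05 it held 1 of the 8, against 35.8% of all genes, and 5 of 8 differences were above 0, against 52.0%. Groups without overlap were found for 0 of the 8 and 0.838% of all genes. With 8 genes, 1 call is close to the share among all genes. B2m had 1919, 2786 and 3273 normalized reads as lowest, median and highest in young LPS rats, and 3206, 3587 and 5491 in aged rats. Of the LPS libraries, 6 of 8 lay below every aged library. The log2 change was -0.58 (SE 0.16, 95% interval -0.90 to -0.26), with adjusted p = 0.0490. The same gene was called by edgeR (adjusted p = 0.0342, with 14.4% of all genes called) and by DESeq2 (adjusted p = 0.00941, with 21.9% called).

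The B2m call was close to the threshold. It ended when any 1 of 15 of the 22 libraries was left out, 5 from young LPS rats (2404, 2408, 2527, 2543 and 2717), 4 from aged rats (2415, 2420, 2531 and 2532) and 6 from young vehicle rats (2410, 2526, 2571, 2722, 2728 and 2731), with changes of -0.49 to -0.64 and adjusted p up to 0.121. Without rat 2532 limma called 0 of all genes in this comparison. Without rats 2420 and 2532 together the B2m change was -0.36 (adjusted p = 0.272). In CA1, the 4 perivascular macrophage markers, none at 0 in a whole group, summed to 50.5 to 96.0 normalized reads in young LPS rats. They summed to 84.5 to 209 in aged rats and 65.5 to 207 in young vehicle rats. Neuron markers summed to 29354 to 43732 in young LPS rats, 38524 to 93248 in aged rats and 31930 to 47078 in young vehicle rats. The aged median was 41198, and the sum of 93248 came from rat 2532. That rat's CA1 library held 12292346 reads, the fewest in CA1, and 1 read in it was worth 1.46. Microglial markers, 6 of 7 with a row, summed to 3830 to 5718 in young LPS rats, 4058 to 5589 in aged rats and 3698 to 6242 in young vehicle rats. Choroid plexus markers were 1.40 in rat 2420 and 1.15 in rat 2532 above the region mean on the log2 scale. They were also high in young LPS rat 2404, at 1.10 with B2m at 2183. In young vehicle rat 2526 they were 3.81, with B2m at 3670. The part of these markers, or of depth, in the B2m result was not tested. In DG, B2m differed by 0.077 (SE 0.12, adjusted p = 0.895).

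Among the other members in CA1, Tap1 had 127, 136 and 188 normalized reads as lowest, median and highest in young LPS rats and 51.0, 112 and 181 in aged rats. All 8 LPS libraries lay above the aged median. On the log2 scale it differed by 0.44 (SE 0.22, adjusted p = 0.155), and by 0.23 without rat 2532. Differences of Tap2, Tapbp, Psmb8, Psmb9, Psmb10 and Nlrc5 in CA1 were -0.14 to 0.23, with adjusted p of 0.227 to 0.804. Without rat 2532 Tapbp was at 0.39 and Psmb8 at 0.077. In DG limma called 0 of the 8 genes and 0.0134% of 14904 genes, and edgeR (0.00671%) and DESeq2 (0.148%) called 0 of the 8. At an unadjusted p below 0.05 limma held 2 of the 8, against 9.10% of all genes, and groups without overlap were found for 0 of the 8 and 0.443% of all genes. Tap2 in DG had 163, 222 and 291 in young LPS rats and 243, 274 and 325 in aged rats, a log2 difference of -0.33 (SE 0.12, adjusted p = 0.418). For Tap2, 5 of the 8 LPS libraries lay below every aged library, and the same number did so for Psmb8. The Psmb8 change was -0.70 (SE 0.29, adjusted p = 0.468), and without rat 2547 it was -0.45. For Tap1, Tapbp, Psmb9, Psmb10 and Nlrc5 the differences in DG were -0.41 to -0.012, with adjusted p of 0.735 to 0.991. Psmb9 was at -0.41, and at -0.16 without rat 2547. Differences were above 0 for 1 of the 8 genes in DG, against 48.0% of all genes, with a median of -0.22, beside -0.0083 over all genes.

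**Figure D3:**
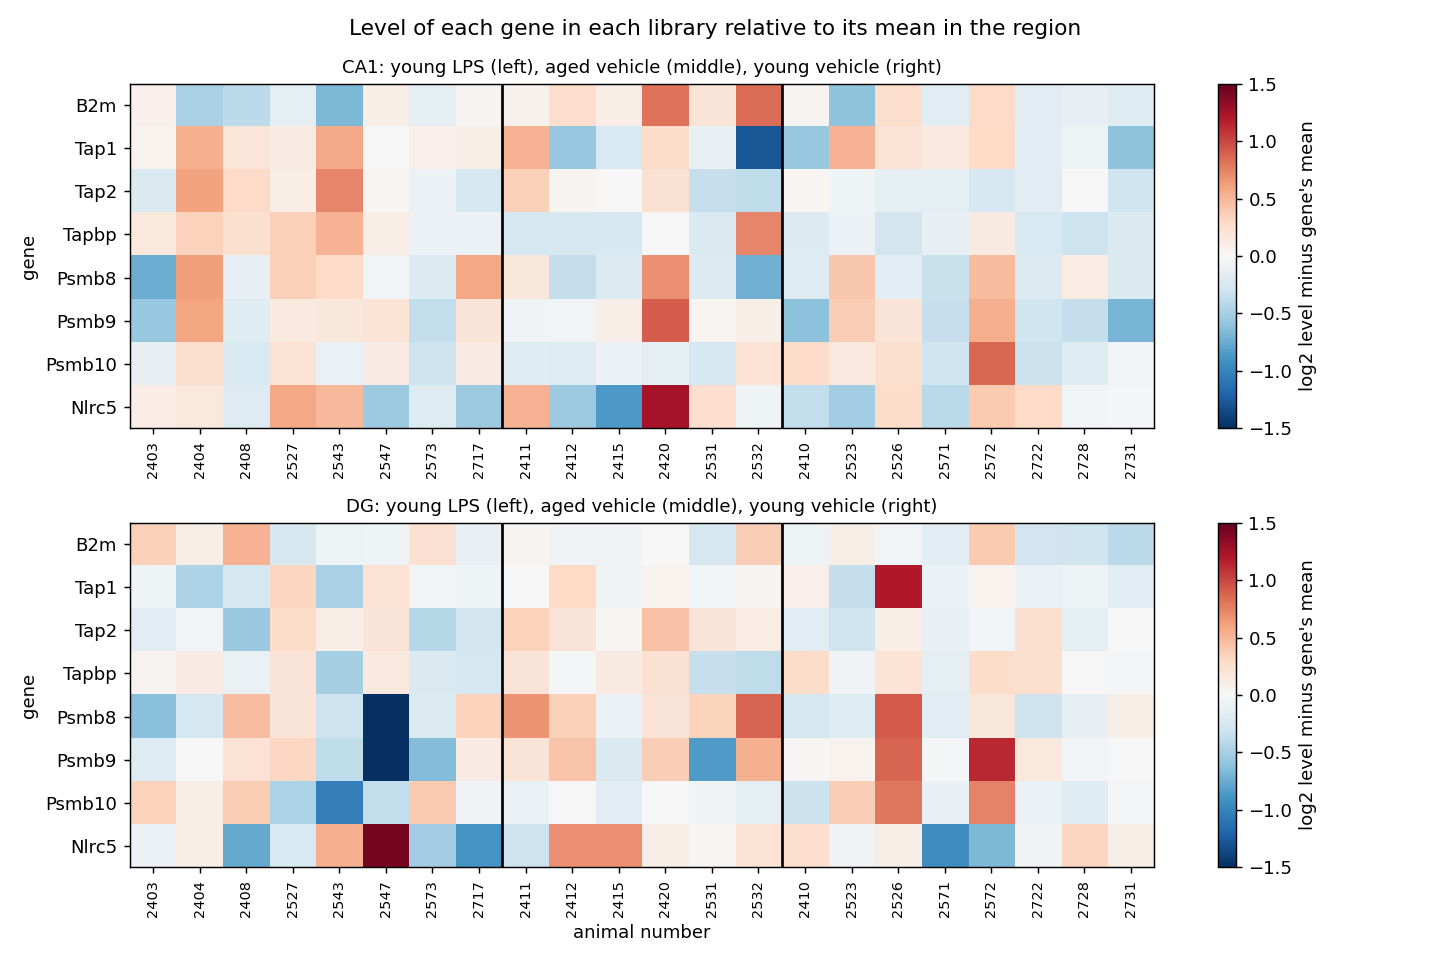
Log2 level of each gene in each library minus that gene's mean over the region's 22 libraries, with animals grouped as young LPS, aged vehicle and young vehicle. Colours are limited at 1.5 in either direction. In CA1 aged rat 2420 was high for B2m, Psmb8, Psmb9 and Nlrc5 together, and in DG rat 2547 was low for Psmb8 and Psmb9 and high for Nlrc5.

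Exchange of catalytic subunits was described by the log2 ratio of each immunoproteasome subunit to the subunit it replaces, with two-sided exact permutation tests over samples. Gene lengths were not used, so a ratio is read between groups and not as a share of proteasomes. None of 18 ratio comparisons passed after adjustment. The smallest p-values were for Psmb9 over Psmb6 in CA1. That ratio was 1.14 ± 1.29 in aged rats (n = 6) and -0.12 ± 0.54 in young vehicle rats (n = 8), a difference of 1.26 (exact permutation p = 0.0127, adjusted p = 0.114). It was -0.11 ± 0.45 in young LPS rats (n = 8) and 1.14 ± 1.29 in the same aged rats, a difference of -1.25 (exact permutation p = 0.00932, adjusted p = 0.114). Psmb6, the denominator, had 4.38, 37.3 and 56.3 normalized reads as lowest, median and highest in aged rats, and 30.1, 48.2 and 140 in young vehicle rats, and the lowest was 3 reads in rat 2532. Without rat 2532 the ratio differed by 0.80 between aged and young vehicle rats and by -0.79 between young LPS and aged rats (each adjusted p = 0.302, exact permutation test). Psmb6 counts were 3 to 143 reads per CA1 library. In CA1 of young vehicle rats its median of 48.2 normalized reads stood beside 1835 for Psmb5 and 1669 for Psmb7. How reads shared with related sequences were counted is not given in the sources used here, so Psmb6 values and ratios over it are uncertain. Psmb8 over Psmb5 in DG was -4.67 ± 0.43 in aged rats and -5.02 ± 0.19 in young vehicle rats (exact permutation p = 0.0503, adjusted p = 0.302, n = 6 and 8). Psmb10 over Psmb7 in CA1 was -2.50 ± 0.19 in young LPS rats, -2.50 ± 0.13 in aged rats and -2.46 ± 0.41 in young vehicle rats.

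Pairs of members were correlated over the 22 libraries of a region after removing group means, with 28 pairs in each region and adjustment over both regions together. Points share libraries, and with them depth and tissue make-up. In CA1, Psmb8 and Psmb9 had Pearson's r = 0.77 (permutation p = 9.00e-05, adjusted p = 0.00504) and Spearman's rho = 0.70 (permutation p = 0.000530, adjusted p = 0.0297). Leaving out rats 2420 and 2403, the farthest from the median of Psmb8, gave r = 0.64 (permutation p = 0.00307, adjusted p = 0.0573). In DG the same pair had r = 0.81 (permutation p = 0.000960, adjusted p = 0.0269) and rho = 0.66 (permutation p = 0.00208, adjusted p = 0.0388). Without rats 2547 and 2526 it was r = 0.52 (permutation p = 0.0223, adjusted p = 0.138). Leaving out the libraries farthest from the median narrows the range of Psmb8, which can lower r by itself. Whether the relation of the 2 immunoproteasome genes rested on those libraries cannot be told from this.

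Tap1 moved with Psmb8 in CA1 at r = 0.65 (permutation p = 0.00145, adjusted p = 0.0271) and rho = 0.66 (permutation p = 0.00171, adjusted p = 0.0388), and r was 0.59 (permutation adjusted p = 0.0620) without rats 2532 and 2411. For Tap1 and Psmb9, the neighbours with opposite reading directions, r was 0.55 (permutation p = 0.0115, adjusted p = 0.0733) and rho 0.55 (permutation p = 0.0113, adjusted p = 0.105). Without rats 2532 and 2411 it was 0.79 (permutation p = 0.000220, adjusted p = 0.0123). Tap1 and Tap2 had r = 0.54 (permutation p = 0.00381, adjusted p = 0.0427) and rho = 0.56 (permutation p = 0.00817, adjusted p = 0.0915), with r = 0.38 (permutation adjusted p = 0.181) without those rats. B2m and Tap2 went opposite ways in CA1, with r = -0.54 (permutation p = 0.0159, adjusted p = 0.0888) and rho = -0.52 (permutation p = 0.0215, adjusted p = 0.151). That r was -0.64 (permutation adjusted p = 0.0440) without rats 2532 and 2420, and in DG it was -0.52 (permutation adjusted p = 0.111). B2m and Psmb10 in DG had r = 0.65 (permutation p = 0.00250, adjusted p = 0.0350) and rho = 0.65 (permutation p = 0.00379, adjusted p = 0.0531), with r = 0.52 (permutation adjusted p = 0.138) without rats 2572 and 2408. No pair passed both with and without the 2 libraries left out, in either region. Over all 28 pairs the median r was 0.29 in CA1, with 21 above 0, and 0.16 in DG, with 18 above 0.

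**Figure D4:**
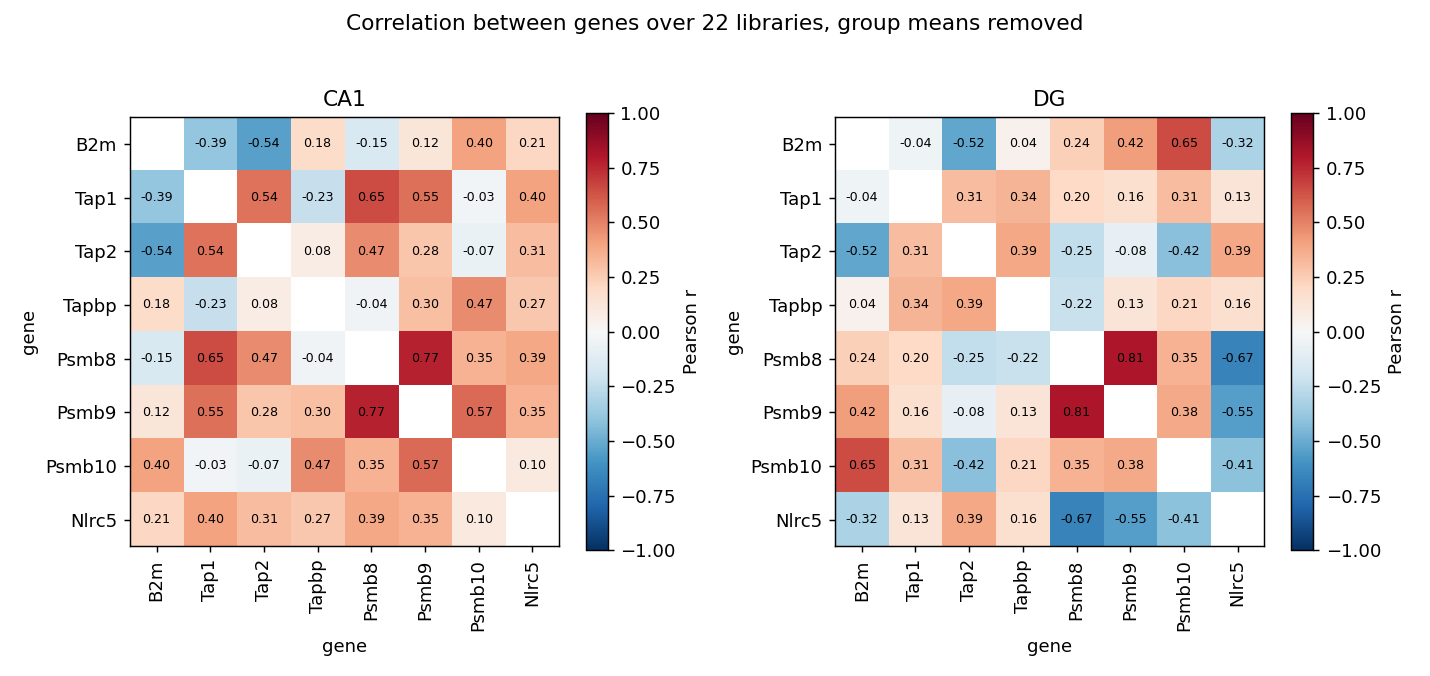
Pearson's r between the log2 levels of each pair of the 8 genes over 22 libraries, group means removed, in CA1 and DG. Psmb8 and Psmb9 had the highest r in both regions, 0.77 in CA1 and 0.81 in DG, and B2m with Tap2 was negative in both.

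The genes most like each member, by Pearson's r over the same 22 libraries, are given as a description. B2m was accompanied by Selenop, which encodes the plasma selenium carrier, at r = 0.86 in CA1 and 0.92 in DG, where it was the first of all genes. Psmb9 was accompanied in CA1 by Cyba at 0.89 and in DG by Cybb at 0.90; these genes encode the paired membrane subunits of the phagocyte NADPH oxidase. The r of Cyba with Psmb9 was 0.64 in DG, and that of Cybb with Psmb9 was 0.24 in CA1. Cyba was also the first gene for Psmb8 in CA1, at 0.83. Psmb10 went with Cox5b in CA1 at 0.87 and with the ribosomal protein genes Rpl31, Rpl4 and Rps28 in DG at 0.93, 0.92 and 0.90, and Cox5b reached 0.83 in DG. Tap1 went with Gsdmd, the pore-forming gasdermin, at 0.87 in CA1 and 0.55 in DG. Nlrc5 had Itgb2, a leukocyte integrin chain, at 0.70 in CA1 and -0.16 in DG.

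The class I heavy chains, which pair with B2m, are encoded by the rat RT1 genes. These are near-identical copies, so their counts are uncertain. Of 15 RT1 genes tested in CA1 and 14 in DG, 0 passed limma in any comparison, with 0, 0 and 1 at an unadjusted p below 0.05 in CA1 and 0, 1 and 1 in DG for LPS, age and LPS against aged. Among all genes these shares were 6.87%, 12.6% and 35.8% in CA1 and 7.53%, 2.99% and 9.10% in DG. RT1-A1 in CA1 had 959, 1143 and 1679 normalized reads as lowest, median and highest in young LPS rats, 766, 1080 and 2549 in aged rats, and 739, 871 and 1258 in young vehicle rats. All 8 LPS libraries lay above the young vehicle median. The estimate on the log2 scale was 0.33 (SE 0.17, adjusted p = 0.654) after LPS and 0.36 (SE 0.19, adjusted p = 0.395) with age. The highest value came from rat 2420, the rat that was also highest for Psmb8, Psmb9 and Nlrc5. In DG RT1-A1 was 1074 ± 155 in aged rats (n = 6) and 823 ± 223 in young vehicle rats (n = 8), a log2 difference of 0.41 (SE 0.14, adjusted p = 1.000).

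Other genes of the pathway came from lists of peptide loading and trimming partners (12 tested in CA1, 13 in DG), proteasome activators (4), the constitutive 20S core (15), class I-like genes (5), interferon and class I regulators (22) and neuronal partners of class I (1). None of these genes passed limma for LPS or age in either region, or for LPS against aged in DG. In CA1, young LPS against aged rats gave 2 of 12 loading and trimming partners lower and 0 higher, and 2 of 22 regulators lower and 1 higher. Of all genes 8.73% were called in that comparison and 5.24% were called lower, and with lists of this size the counts are not read as a result about them. Canx, the chaperone calnexin that binds new heavy chains, had 3822, 5079 and 6003 normalized reads as lowest, median and highest in young LPS rats, and 5453, 6797 and 16948 in aged rats. The groups overlapped, and the top aged value was from rat 2532. The estimate on the log2 scale was -0.61 (SE 0.19, adjusted p = 0.0490). Ide, an insulin-degrading peptidase, changed by -0.35 (SE 0.11, adjusted p = 0.0497). Without rat 2532, an alternative chosen after seeing the data, Canx was at -0.37 (adjusted p = 0.124) and Ide at -0.26 (adjusted p = 0.133).

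Among the regulators past that threshold, Jak2, a kinase of cytokine and interferon receptors, changed by -0.42 (SE 0.12, adjusted p = 0.0490). Rela, an NF-κB subunit, was the higher one, at 612 ± 128 in young LPS rats (n = 8) and 422 ± 96.4 in aged rats (n = 6), with a log2 difference of 0.54 (SE 0.16, adjusted p = 0.0490). Without rat 2532 these were -0.33 for Jak2 (adjusted p = 0.122) and 0.42 for Rela (adjusted p = 0.130). Among genes that did not pass, the activator Psme4 was at -0.73 (SE 0.24, adjusted p = 0.0513) in that comparison, and Irf7 in DG at -0.78 (SE 0.23, adjusted p = 0.291). The gene for interferon gamma itself, Ifng, did not pass the filter on low values in either region, and its median was 0 in CA1 of young LPS and young vehicle rats.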

How the data were processed

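Polyadenylated RNA from CA1 and DG of 22 male rats was made into 44 libraries with the Ion Total RNA-Seq kit v2, per the labels. The deposited values are normalized counts per gene, treated here as a signal; the submitters' processing notes name STAR, Partek, DESeq2 and build rn6, and their versions, the annotation and any strand setting are not stated there. Dividing each library by the value of its smallest step gave whole reads (within 0.1, for values up to 1000 reads) in 99.82% of CA1 and 100.00% of DG values. Genes reaching 10 in at least 6 libraries were tested (14915 in CA1, 14904 in DG), and all 8 members passed in both regions. limma 3.58.1 (trend and robust variance) was run on log2(value + 1) with Benjamini-Hochberg adjustment over all genes. A fold on that scale understates changes of low genes. edgeR 4.0.16 and DESeq2 1.42.0 on recovered reads, other pseudocounts, filters and scalings, and fits without single libraries were alternatives.

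Regional differences used the same animal's regions as a pair, which the labels give by animal number. The pairing was at most weak in the values. Deviations from group means in CA1 and DG of the same rat had a median r of 0.051 over 22 rats. Values of r between different rats are not given beside it. For 1 of the 22 the best match was its own other region, which random matching would also give on average. That count therefore does not show the pairing, which rests on the labels. Correlations used 100000 permutations within groups and ratios exact permutation tests, in Python 3.11.15 with scipy 1.17.1. On simulated data for the LPS comparison, limma recovered 30% of changes of 0.5 log2 in CA1 (14794 genes) and 30% in DG (14778 genes), and 92% and 96% of changes of 1 log2. The simulation gave every gene the same relative spread between animals. These shares therefore do not cover genes with a wider spread, such as Psmb9 in DG (34.1 ± 13.1 in young LPS rats). Same-group libraries differed by more than sampling noise. Separate animals were the replicates. The members and lists were chosen with earlier results of these data known. Genes named beside the members come from those of each list past the threshold or, where none passed, the 2 with the smallest p, and from the 3 most correlated with each member; some of these are not reported here. Promoters are from the RefSeq table of assembly GRCr8.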

Additional observations from a re-analysis of the deposited data

Results flagged for a closer look

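Of 48 groups of 6 or 8 libraries tested for a value far from the rest (8 genes, 3 groups, 2 regions), 7 were flagged. Chance would flag about 1 in 20 of independent groups. The genes share libraries, so the flags are not independent, and their number is not read against that rate. In CA1 of aged rats, Tapbp was 499 normalized reads in rat 2532 and Psmb9 was 101 in rat 2420, each the highest of its group. In DG of aged rats, Tap1 was highest at 170 in rat 2412. In DG of young LPS rats, rat 2547 was the lowest for Psmb8 at 13.4 and for Psmb9 at 8.50. In DG of young vehicle rats, rat 2526 was the highest for Tap1 at 318 and for Psmb8 at 113. Markers of other cell types in rats 2420, 2532, 2547 and 2526 are given beside the results above.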

How the results depend on the processing

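No member passed in any comparison but young LPS against aged in CA1, under every alternative run, and there the count of 1 (B2m) was 0 with no filter on low values, with 2 groups in the fit, without rats 2526, 2572 and 2532, and without rats 2420 and 2532 (chosen after seeing the data). B2m was then -0.58 (limma adjusted p = 0.0656), -0.58 (0.0914), -0.49 (0.0970) and -0.36 (0.272). Leaving out 1 library gave counts of 0 to 1. Reversals touched values that had not passed. Without rats 2526, 2572 and 2532, LPS changes in CA1 were 0.00079 (B2m) and 0.061 (Psmb10), age changes in CA1 0.10 (Tap1) and 0.086 (Psmb8), Tap1 in DG 0.012 after LPS and 0.18 with age, and CA1 minus DG values 0.16 (Nlrc5, LPS), -0.10 (Psmb10, age) and 0.012 (Nlrc5, age). Without rats 2420 and 2532, age changes in CA1 were -0.073 (Tapbp) and -0.11 (Nlrc5), and LPS minus aged changes 0.019 (Psmb9) and 0.14 (Nlrc5). With the animal number series in the fit, limma called 2910 of all genes for LPS against aged in CA1, against 1302 without it. For age in CA1 it called 0, against 2. In that fit, age changes were -0.057 (Tap2, CA1) and -0.055 (B2m, DG), and LPS minus aged changes in DG 0.044 (Tapbp) and 0.051 (Psmb10). Psmb10 was there 0.061 with edgeR and 0.059 with DESeq2. Leaving out 1 library each, members whose sign changed ranged in CA1 from -0.15 to 0.017 (Psmb10, LPS), -0.051 to 0.11 (Nlrc5, LPS), -0.35 to 0.0087 (Tap1, age), -0.027 to 0.17 (Tapbp, age), -0.25 to 0.029 (Psmb8, age), -0.089 to 0.34 (Nlrc5, age), -0.23 to 0.0024 (Psmb9, LPS minus aged) and -0.30 to 0.12 (Nlrc5, LPS minus aged). In DG they ranged from -0.15 to 0.18 (Nlrc5, LPS), -0.071 to 0.15 (Tap1, age), -0.10 to 0.025 (Tapbp, LPS minus aged) and -0.081 to 0.12 (Psmb10, LPS minus aged). For CA1 minus DG they ranged from -0.14 to 0.26 (Nlrc5, LPS), and with age from -0.35 to 0.017 (Tap1), -0.049 to 0.12 (Psmb10) and -0.46 to 0.08 (Nlrc5). Without rats 2526, 2572 and 2532, ratios reversed to -0.087 (Psmb8 over Psmb5, LPS minus aged, CA1), -0.053 (Psmb9 over Psmb6, LPS, CA1), 0.12, 0.072 and 0.049 (Psmb10 over Psmb7 in CA1 for LPS, age and LPS minus aged) and -0.002 (the last in DG). Without 1 library each, reversing ratios in CA1 ranged from -0.13 to 0.24 and -0.087 to 0.28 (Psmb8 over Psmb5, age and LPS minus aged), -0.12 to 0.11 (Psmb9 over Psmb6, LPS), and -0.13 to 0.043, -0.12 to 0.048 and -0.041 to 0.049 (Psmb10 over Psmb7 for LPS, age and LPS minus aged). In DG they ranged from -0.21 to 0.16 (Psmb8 over Psmb5, LPS), -0.071 to 0.38 (Psmb9 over Psmb6, LPS minus aged) and -0.06 to 0.13 (Psmb10 over Psmb7, LPS minus aged). Pairs of members past the threshold numbered 3 in CA1 and 2 in DG, and 2 and 0 without the 2 farthest libraries. The cause was not tested. Without the replicate block, 0 members passed in the regional differences, as with it. Changes of 0.5 log2 were mostly missed in the simulation of the LPS comparison (8 against 8 rats); comparisons with the 6 aged rats were not simulated, and Nlrc5, Psmb6 and Psmb9 rest on few reads.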
